A study of Rattus norvegicus with 20 samples.

Results

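The genes described here are 10 genes of cell division, Aurkb, Kif23, Bub1b, Mki67, Top2a, Ccnb1, Cdk1, Ccnd1, Pcna and Mcm6, in the olfactory and respiratory epithelium of the rat nose. They were chosen by name, and every probe set annotated to a single symbol of the 10 was taken. This gave 15 probe sets of 31042 tested, and 10 of 14217 named genes. All 10 genes were represented on the array, and Kif23, Top2a and Ccnb1 had 2 probe sets each and Ccnd1 had 3. The RNA came from untreated adult Sprague-Dawley rats of 11, 13 or 14 weeks, with no genetic modification or disease. Each array (type Rat230_2) held the RNA of 1 tissue of 1 rat. There were 6 arrays of male olfactory epithelium, 6 of male respiratory epithelium, 2 of female olfactory epithelium and 6 of female respiratory epithelium. The labels name 13 rats, 7 males and 6 females, of which 5 males and 2 females gave both tissues. The samples were whole pieces of epithelium collected from the nasal passages and turbinates, so each value is an average over all cell types present.

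Cells that divide make the proteins of replication and mitosis in waves. Ccnd1 (cyclin D1) acts with its kinases at the entry into the cycle, Mcm6 is a subunit of the helicase that opens replication origins, and Pcna is the sliding clamp of the DNA polymerases. Cdk1 with cyclin B1 (Ccnb1) drives entry into mitosis, Top2a untangles the copied chromosomes, and Mki67 coats them and is the common marker of cycling cells. Bub1b belongs to the spindle checkpoint, Aurkb is the kinase of the chromosomal passenger complex at centromere and midzone, and Kif23 is the motor of the centralspindlin complex that cytokinesis requires. In the nose, both epithelia renew from basal cells. The olfactory epithelium replaces its sensory neurons throughout life through globose basal cells, and the respiratory epithelium replaces ciliated and secretory cells from keratin 5-positive basal cells.

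The promoters of 5 members are shown because many mitotic genes share known promoter elements. Kif23 and Bub1b were the members with a matched promoter that fell in males. Mki67 and Cdk1 hold a CHR and a CCAAT box, as Kif23 does, and did not pass that test. Mcm6 stands for the replication genes. The sequences are from RefSeq (build GRCr8) and run from 250 bases before to 50 bases after the annotated start, 5′ to 3′ on the strand of the gene. A promoter was found for 8 of the 10 genes. Capitals mark 3 kinds of motif searched on both strands: the cell cycle homology region or CHR (TTTGAA or TTCGAA), the CCAAT box (CCAAT), and the E2F site (TTTCGCGC, TTTGGCGC, TTCCCGCC or TTTCCCGC).
Kif23, chr8:71320535-71320834, minus strand: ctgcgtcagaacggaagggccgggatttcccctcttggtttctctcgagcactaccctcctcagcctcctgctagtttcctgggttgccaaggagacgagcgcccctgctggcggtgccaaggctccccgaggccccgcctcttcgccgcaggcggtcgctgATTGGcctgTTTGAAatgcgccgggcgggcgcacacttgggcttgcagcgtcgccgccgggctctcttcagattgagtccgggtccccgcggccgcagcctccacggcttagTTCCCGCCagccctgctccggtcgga
Bub1b, chr3:126016817-126017116, plus strand: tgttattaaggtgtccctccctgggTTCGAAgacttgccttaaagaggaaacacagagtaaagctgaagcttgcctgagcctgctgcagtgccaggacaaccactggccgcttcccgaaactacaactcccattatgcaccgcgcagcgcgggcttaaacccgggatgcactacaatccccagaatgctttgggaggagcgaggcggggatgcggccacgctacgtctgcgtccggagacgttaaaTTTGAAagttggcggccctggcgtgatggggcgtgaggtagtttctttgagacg
Mki67, chr1:199952544-199952843, minus strand: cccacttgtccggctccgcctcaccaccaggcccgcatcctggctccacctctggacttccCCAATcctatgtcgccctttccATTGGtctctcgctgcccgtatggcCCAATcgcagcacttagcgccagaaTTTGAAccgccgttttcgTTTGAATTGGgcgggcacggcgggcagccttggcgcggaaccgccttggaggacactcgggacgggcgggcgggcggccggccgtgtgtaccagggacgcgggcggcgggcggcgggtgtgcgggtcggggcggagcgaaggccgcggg
Cdk1, chr20:19265043-19265342, plus strand: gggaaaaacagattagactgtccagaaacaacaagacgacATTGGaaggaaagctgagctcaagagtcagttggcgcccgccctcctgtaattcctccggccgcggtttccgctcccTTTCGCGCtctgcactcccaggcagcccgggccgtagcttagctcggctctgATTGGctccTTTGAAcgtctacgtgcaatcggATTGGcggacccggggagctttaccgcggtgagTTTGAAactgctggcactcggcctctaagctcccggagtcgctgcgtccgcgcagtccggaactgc
Mcm6, chr13:42404303-42404602, minus strand: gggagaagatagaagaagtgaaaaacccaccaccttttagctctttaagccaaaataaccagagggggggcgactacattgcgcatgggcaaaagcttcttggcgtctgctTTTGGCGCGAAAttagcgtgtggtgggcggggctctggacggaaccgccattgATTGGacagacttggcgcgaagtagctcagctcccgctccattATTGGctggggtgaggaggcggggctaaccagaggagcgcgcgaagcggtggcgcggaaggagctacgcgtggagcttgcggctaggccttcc

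A CHR was present in 5 of the 8 promoters (Kif23, Bub1b, Mki67, Top2a and Cdk1), against 19.7% of the 33469 promoters in the same table. A CCAAT box was present in 7 of 8, all but Bub1b, against 37.5%, and an E2F site in 3 of 8 (Kif23, Cdk1 and Mcm6), against 3.17%. Both CHR and CCAAT box were present in 4 of 8 (Kif23, Mki67, Top2a and Cdk1), against 7.95%. In Kif23 the CCAAT box began at position -88 and the CHR at -79, counted from the annotated start. Cdk1 holds CCAAT boxes at -210, -81 and -49 and a CHR at -72 and at -16. Its pair at -81 and -72 stood as far apart as the pair in Kif23, and its other pairs did not. In Mki67 the second CHR at -99 runs into the CCAAT box at -94 and they share a base, and in Mcm6 the E2F matches at -139 and -135 overlap. These matches are descriptions of the sequence and no binding was measured here.

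The arrays were scaled alike, with a trimmed mean signal of 500.1 to 500.3 and medians of 133.5 to 192.5. The background of an array, set at the 95th percentile of the signals of 27 bacterial controls, was 28.2 to 64.9. Omp, which mature olfactory neurons express, went with the tissue labels, at 21367.5 to 26936.1 on the 8 olfactory arrays and 815.3 to 9624.8 on the 12 respiratory arrays, where it was above background on every array. The 2 arrays that follow stood apart. Female respiratory array 8 had the highest 3′ to 5′ log2 ratios of all arrays for GAPDH (0.74) and actin (1.69). Its ratio for hexokinase was low, at 0.54, where all arrays ran from 0.46 to 1.38. Male respiratory array 7 had the highest summed signal of airway basal cell markers (104920). The RNA integrity number was 8.2 to 8.8 on 5 male olfactory arrays and 9.1 to 9.3 on 4 male respiratory arrays, and 8.3 on both female olfactory arrays and 8.7 to 9.3 on the 6 female respiratory arrays. Integrity and tissue therefore cannot be told apart in either sex.

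Aurkb had the largest tissue difference of the 10 genes. Its signal on male olfactory arrays was 632.6, 631.9, 456.0, 159.3, 484.3 and 136.6 in rats 1, 2, 3, 4, 7 and 10, against 4245.3, 3977.8, 1628.1, 1246.6, 2411.1 and 1088.5 on male respiratory arrays of rats 1, 2, 3, 4, 7 and 8. Every male olfactory value lay below every male respiratory value. The mean log2 level, on the log2(signal + 16) scale used throughout, was 8.54 ± 0.94 in male olfactory and 11.06 ± 0.83 in male respiratory epithelium (SD, n = 6 each). Aurkb fell by 2.52 on that scale in olfactory epithelium (SE 0.47, a 5.74-fold lower level, limma adjusted p = 2.8e-04). In the 5 males with both tissues, the within-rat difference ran from -1.80 to -2.85.

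Kif23 fell at both of its probe sets in males. Probe set 1391063_at read 116.9, 129.5, 103.2, 120.0, 120.6 and 61.9 on male olfactory arrays, against 329.6, 465.5, 498.2, 393.5, 309.6 and 329.5 on male respiratory arrays. The groups did not overlap. The change was -1.70 (SE 0.24, 3.25-fold lower, adjusted p = 1.1e-05). Probe set 1395828_at read 34.7, 30.1, 24.2, 21.5, 15.1 and 9.9 on male olfactory arrays, against 47.8, 32.2, 103.0, 210.1, 102.6 and 125.9 on male respiratory arrays. It was above background on 1 of 6 male olfactory and 5 of 6 male respiratory arrays, and its change was -1.49 (SE 0.39, adjusted p = 0.00614). Within the 3 males of 11 weeks that gave both tissues, it was not called (adjusted p = 0.308).

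Bub1b, of the spindle checkpoint, was measured near background in olfactory epithelium. Its male olfactory signals were 18.5, 120.0, 9.1, 80.6, 21.2 and 7.9, against 151.0, 94.6, 41.9, 154.9, 163.1 and 96.7 on male respiratory arrays. The groups overlapped, since rats 2 and 4 had olfactory values above the lowest respiratory value. Bub1b was above background on 2 of 6 male olfactory and 5 of 6 male respiratory arrays. It was called lower, with a difference in measured log2 values of -1.42 (SE 0.46, adjusted p = 0.0242). No fold is given, because most of its male olfactory values were not above background. This call did not hold without male olfactory array 1, 3 or 10 or without male respiratory array 1 or 4, each left out alone (adjusted p = 0.0504 to 0.0619 over these 5 settings).

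**Figure D1:**
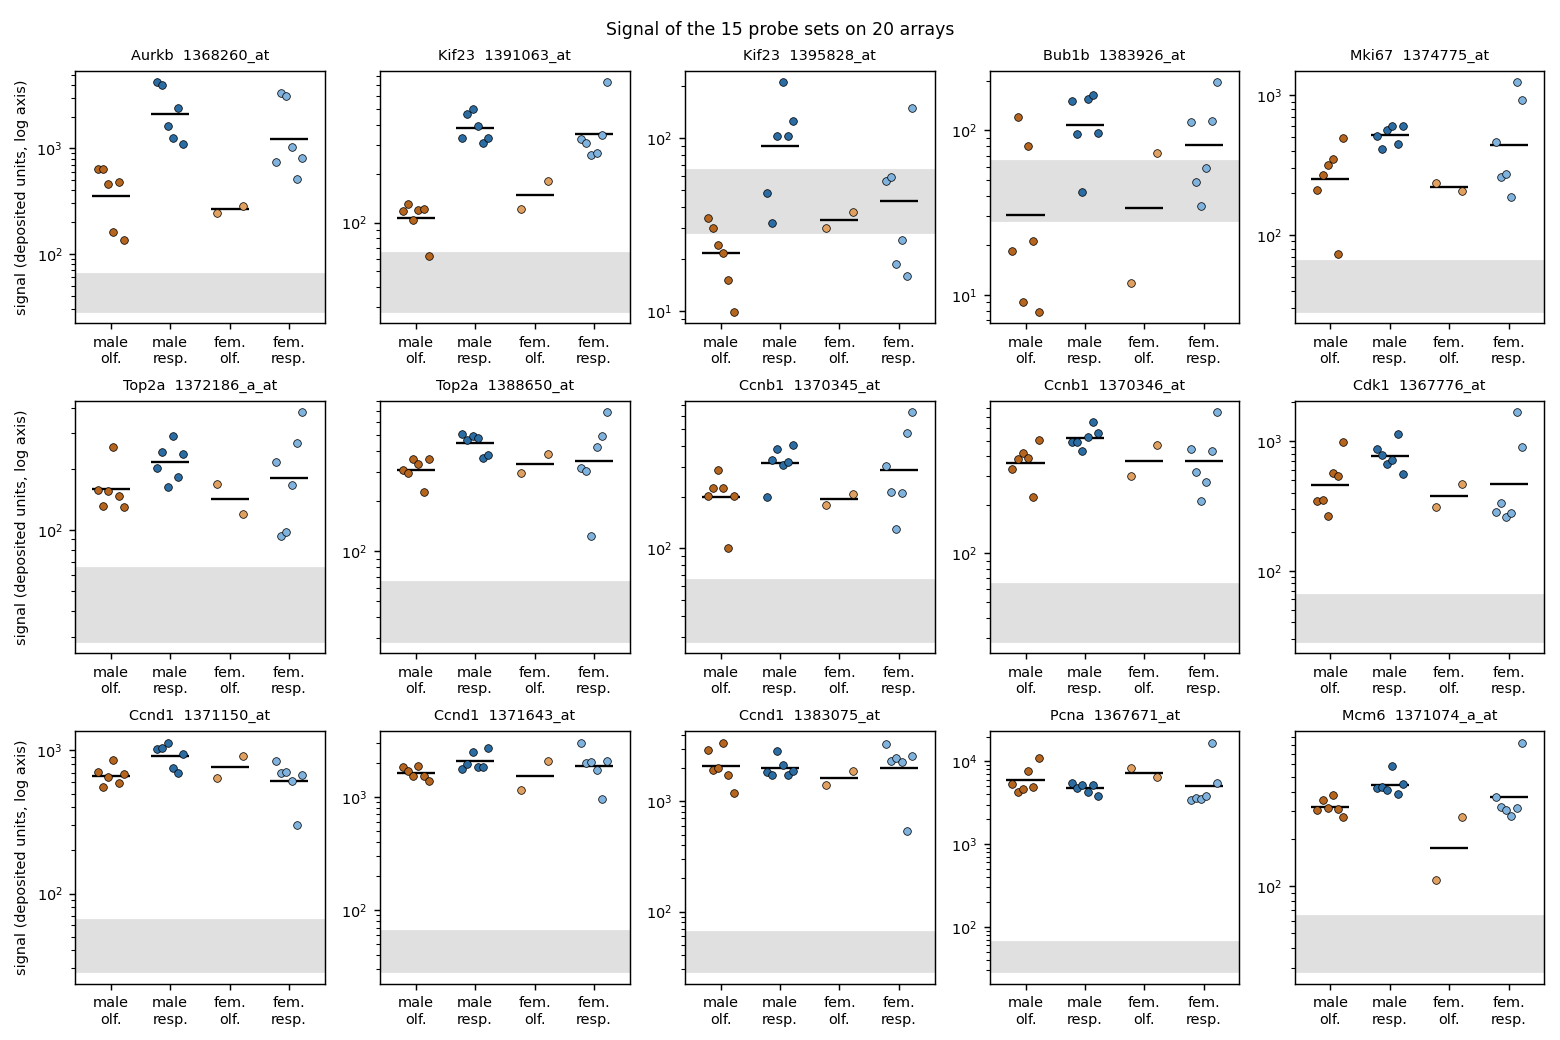
Deposited signal (log axis) of the 15 probe sets on each array, as points, with the mean of the group on the log2(signal + 16) scale as a bar and the range of array backgrounds (28.2 to 64.9) in grey. Male olfactory points lie wholly below male respiratory points for Aurkb and for Kif23 1391063_at, while the points of Pcna and Ccnd1 overlap between tissues.

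The other mitotic genes were lower in male olfactory epithelium on average without passing the test. Mki67 read 211.2, 269.3, 315.1, 350.3, 72.7 and 490.3 on male olfactory arrays, against 507.2, 410.8, 559.8, 605.5, 446.5 and 597.9 on male respiratory arrays. Only male olfactory array 10, from a rat with no respiratory array, lay above the lowest respiratory values. The difference was -1.001 (SE 0.40, adjusted p = 0.0696), and it passed without male olfactory array 10 (adjusted p = 0.0356) and without female respiratory array 8, which enters the shared spread (adjusted p = 0.0366). With single arrays left out in turn, the Mki67 difference ran from -1.187 to -0.684 (limma adjusted p = 0.0356 to 0.19). With RNA integrity as covariate it was -0.61 (limma adjusted p = 0.736). Cdk1 read 345.9, 352.0, 263.7, 563.5, 539.9 and 987.9 on male olfactory arrays, against 868.7, 788.5, 668.5, 715.1, 1129.0 and 562.7 on male respiratory arrays, a difference of -0.72 (SE 0.38, adjusted p = 0.189). Olfactory array 10 was again the highest of its group.

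Ccnb1 probe sets 1370345_at and 1370346_at differed by -0.63 and -0.49 (adjusted p = 0.142 and 0.155). Their male olfactory signals ran from 101.2 to 290.8 and from 224.8 to 507.4, against 200.3 to 405.6 and 428.8 to 654.8 on male respiratory arrays. Top2a probe sets 1372186_a_at and 1388650_at differed by -0.41 and -0.50 (adjusted p = 0.331 and 0.191). At 1388650_at the male groups did not overlap, with 227.2 to 357.6 on olfactory and 364.3 to 507.7 on respiratory arrays, although the difference did not pass the test.

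The genes of cycle entry and replication did not pass the test in males either. Mcm6 and Ccnd1 1371150_at lay about as far below 0 as Top2a did (-0.41 and -0.50). Ccnd1 showed -0.45, -0.34 and 0.05 at probe sets 1371150_at, 1371643_at and 1383075_at (adjusted p = 0.12, 0.285 and 0.939). Without female respiratory array 8, the difference at 1371150_at passed (adjusted p = 0.0339). Its signal at 1371643_at was 1388.1 to 1886.5 on male olfactory arrays and 1750.8 to 2682.8 on male respiratory arrays. Mcm6 read 306.9, 353.8, 315.6, 384.5, 308.9 and 276.6 on male olfactory arrays, against 421.0, 432.6, 412.5, 583.3, 388.9 and 452.4 on male respiratory arrays. The groups did not overlap, and the difference of -0.44 (SE 0.24) had an adjusted p of 0.191.

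Pcna was the member with a mean above 0 in males at its only probe set, 0.32 (SE 0.31, adjusted p = 0.51). It read 5284.2, 4269.8, 4599.6, 7694.0, 4942.9 and 11117.8 on male olfactory arrays, against 5523.0, 4750.5, 5220.0, 4263.4, 5135.6 and 3827.2 on male respiratory arrays. The positive mean came with olfactory arrays 4 and 10. In 4 of the 5 males with both tissues, Pcna was lower in olfactory epithelium, by 0.06 to 0.18, and in rat 4 it was higher by 0.85.

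Over the 15 probe sets, 4 were called lower and 0 higher in male olfactory epithelium at an adjusted p under 0.05 (limma), where 13.6% of all probe sets were called lower and 11.6% higher. The 4 probe sets belong to Aurkb, Kif23 and Bub1b. An unadjusted p under 0.05 (limma) was found for 6 of the 15, and for 10942 of all 31042 probe sets. The difference lay below 0 for 13 of 15, with a median of -0.50, against a median of -0.04 over all probe sets. The groups did not overlap at 4 probe sets, those of Aurkb, Kif23 1391063_at, Top2a 1388650_at and Mcm6, all lower in olfactory epithelium, where 7.19% of all probe sets had a lower olfactory group without overlap. Since the samples are bulk tissue, fewer cycling cells and less RNA of these genes per cell cannot be told apart.

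In a further fit, each of the 5 males with both tissues served as its own control (rat as a fixed block). In that fit 7 of the 15 probe sets were called lower in place of 4. Over all probe sets, in either direction, it called fewer than the main fit. Mki67 (-1.15, SE 0.27, adjusted p = 0.00895), Top2a 1388650_at (-0.59, adjusted p = 0.0312) and Cdk1 (-1.02, SE 0.19, adjusted p = 0.00217) then passed. The fixed-block fit also leaves out the female arrays, male olfactory array 10 and male respiratory array 8, so the gain cannot be put down to the pairing alone. With all 12 male arrays, no block and the females left out, 6 of the 15 were called. Mki67 (limma adjusted p = 0.032) and Top2a 1388650_at (limma adjusted p = 0.0498) were among them. The share of all probe sets called is not set beside these 6, so this count describes the members only. When RNA integrity entered the model, over the 17 arrays that have a number, Kif23 1391063_at was the single call left (-1.58, SE 0.46, adjusted p = 0.0414). In that model 2347 of all 31042 probe sets were called in either direction. Aurkb was then at -1.27 (SE 0.84, adjusted p = 0.437), against -2.01 (SE 0.53, adjusted p = 0.00914) on the same arrays without the covariate.

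**Figure D2:**
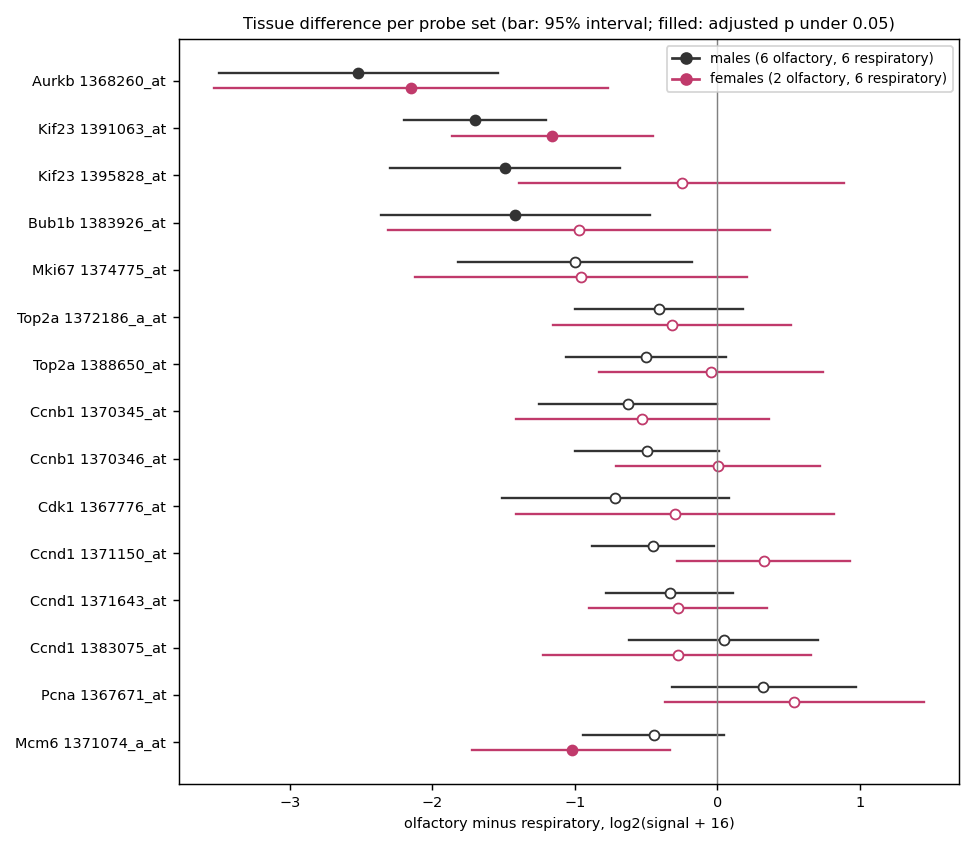
Difference of olfactory minus respiratory epithelium in log2(signal + 16) for each probe set, in males and in females, with 95% intervals from limma; filled points passed an adjusted p under 0.05. Aurkb lies at -2.52 in males and -2.15 in females, and Pcna is the gene furthest to the right.

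In females, with 2 olfactory arrays, 3 of the 15 probe sets were called lower and 0 higher, where 10.3% of all probe sets were called lower and 7.64% higher. They belong to Aurkb, Kif23 and Mcm6. Aurkb read 245.8 and 282.2 on the female olfactory arrays of rats 6 and 8, against 748.3, 3319.8, 3143.8, 1027.5, 508.0 and 817.5 on the female respiratory arrays of rats 3, 4, 6, 7, 8 and 9. Both olfactory values lay below all respiratory values, and the change was -2.15 (SE 0.67, 4.45-fold lower, adjusted p = 0.0273). Kif23 1391063_at read 121.4 and 178.9 on female olfactory arrays, against 324.7, 310.4, 260.7, 268.5, 346.6 and 731.8 on female respiratory arrays, and fell by 1.16 (SE 0.34, adjusted p = 0.0206).

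Mcm6 read 109.6 and 275.8 on female olfactory arrays, against 369.2, 321.5, 307.2, 280.3, 314.7 and 827.3 on female respiratory arrays, and fell by 1.02 (SE 0.34, adjusted p = 0.0373). The lowest and the highest of these values, from olfactory rat 6 and respiratory rat 9, lay far from the others. Without female olfactory array 6 the Mcm6 difference was -0.42 (adjusted p = 0.628), and without female respiratory array 9 it was -0.80 (adjusted p = 0.0555). Without female respiratory array 3 its adjusted p was 0.0519. With female olfactory array 6 left out, Aurkb (adjusted p = 0.199) and Kif23 (adjusted p = 0.268) also missed the threshold. With array 8 left out in its place, Aurkb (adjusted p = 0.123) and Kif23 (adjusted p = 0.0524) missed it as well. Aurkb also missed it without female respiratory array 4 (adjusted p = 0.0525) or 6 (adjusted p = 0.0511). After quantile normalization, Aurkb was the single member called in females, with Kif23 at -0.92 (adjusted p = 0.0654) and Mcm6 at -0.80 (adjusted p = 0.0965).

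Mki67 was lower on average in female olfactory epithelium without a call (236.1 and 206.3, against 188.4 to 1240.7 on female respiratory arrays; -0.96, adjusted p = 0.26). Bub1b read 11.8 and 72.8 on female olfactory arrays, against 34.9 to 196.0 on female respiratory arrays (-0.97, adjusted p = 0.328). Kif23 1395828_at was not above background on either female olfactory array and was above it on 3 of 6 female respiratory arrays, so no fold is given. Pcna read 8291.9 and 6392.5 on female olfactory arrays, against 3456.4, 3584.2, 3538.4, 3814.8, 16930.2 and 5524.0 on female respiratory arrays. Female respiratory array 8 was the single value above the olfactory arrays. With it the Pcna difference was 0.54 (adjusted p = 0.438), and without it Pcna was called higher in female olfactory epithelium (0.89, SE 0.29, adjusted p = 0.0308).

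In each of the 7 rats with both tissues, the olfactory array was lower for Aurkb, Kif23 1391063_at, Mki67 and Mcm6. The other member probe sets were lower in 2 to 6 of these rats. The share of all probe sets that were lower in each of these rats was not counted, so this is a description of the members only. For Mki67 the within-rat difference spanned -0.21 in female 6 to -2.50 in female 8, and for Mcm6 it spanned -0.18 in female 8 to -1.36 in female 6. Kif23 1395828_at and Ccnb1 1370346_at were lower in 5 of 5 males and in 0 of 2 females. The test of the difference between the sexes did not pass for either (adjusted p = 0.924 and 0.929). By limma it passed for 0 of the 15 probe sets and for 0% of all probe sets. An unadjusted p under 0.05 was found for 1 of the 15, Ccnd1 1371150_at (0.0408), and for 1516 of all 31042 probe sets.

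Between females and males of the same tissue, 0 of the 15 probe sets passed (limma), where 0.0258% of all probe sets were called in respiratory and 0.0419% in olfactory epithelium. At an unadjusted p under 0.05 there were 2 of 15 in respiratory epithelium, Kif23 1395828_at (-0.84) and Ccnd1 1371150_at (-0.57), and 1 of 15 in olfactory epithelium, Mcm6 (-0.82). Of all 31042 probe sets, 1160 in respiratory and 1583 in olfactory epithelium had such a p. For Aurkb the female minus male difference in respiratory epithelium was -0.78, with a 95% interval of -1.76 to 0.19, and for Mki67 it was -0.21, with an interval of -1.03 to 0.61. Cdk1 in respiratory epithelium read 1668.8 and 900.5 on female arrays 8 and 9 and 257.9 to 335.8 on the other 4 female arrays, against 562.7 to 1129.0 on the 6 male arrays. Mki67 read 1240.7 and 930.9 on female arrays 8 and 9 and 188.4 to 463.7 on the other 4, against 410.8 to 605.5 on the male arrays. Of the female respiratory arrays, 8 and 9 were those of 14 weeks.

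The wider cell cycle was read from 7 lists of other genes, with the brightest probe set on average standing for each gene. The 6 lists of drivers and machinery, without the brakes, had 119 of 137 genes measured. Of these, 23 were lower (19.3%) and 7 higher (5.88%) in male olfactory epithelium, where 17.8% of all named genes were called lower and 14.0% higher. The share called lower was thus near that of all genes. The median difference was -0.34, against -0.05 over all named genes, and 91 of the 119 lay below 0. In females, 10 of the 119 were lower and 4 higher, where 11.6% of all named genes were called lower and 10.9% higher. Their median difference in females was -0.17, against -0.03 over all named genes.

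Among genes of G1 entry, 4 of 13 were lower and 1 higher in males. Myc, the growth-promoting transcription factor, fell by 1.91 (SE 0.26, adjusted p = 8.0e-06) and E2f2 fell by 1.29 (adjusted p = 0.0012). Mycn, a paralog of Myc active in neural progenitors, was called higher (adjusted p = 0.0117) and was above background on 2 of 6 male respiratory arrays, so no size is given. Cdk4 (0.21) and Cdk2 (-0.46) were not called. Of 16 measured brakes, 5 were lower and 2 higher. Cdkn2d, an inhibitor of Cdk4 and Cdk6, rose by 1.62 (SE 0.23, adjusted p = 1.1e-05), and Cdkn2b and Cdkn2a were called lower (adjusted p = 0.0114 and 0.0103). Cdkn2b and Cdkn2a were each above background on 1 of 6 male olfactory arrays, so no size is given.

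Replication showed 5 of 35 genes lower and 1 higher. Pole2, a subunit of DNA polymerase epsilon that was above background on 4 of 6 male olfactory arrays, fell by 1.55 (adjusted p = 0.00366) and Gmnn (geminin), the inhibitor of relicensing, fell by 1.20 (adjusted p = 0.00767). Orc6 of the origin recognition complex rose by 1.28 (adjusted p = 4.8e-04). Mcm2, a neighbour of Mcm6 in the helicase, was at -0.31 (adjusted p = 0.374). Chromosome structure genes had 4 of 13 lower and 2 higher, with Cdca7 at -2.06 (adjusted p = 3.4e-04), the condensin subunit Ncaph at -1.18 (adjusted p = 1.2e-04) and Ncapg2 of the other condensin at 1.47 (adjusted p = 0.0162). Ncapg2 was above background on 4 of 6 male respiratory arrays.

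Mitotic kinases and regulators had 4 of 18 lower and 1 higher. Cks2, a small Cdk-binding protein, fell by 1.51 (adjusted p = 0.018), and Cdc25b, the phosphatase that activates Cdk1, fell by 1.48 (adjusted p = 2.1e-04). Pkmyt1, which phosphorylates and restrains Cdk1, was called lower (adjusted p = 0.0123) and was above background on 1 of 6 male olfactory arrays, so no size is given. In females Pkmyt1 was at 0.63 without a call (adjusted p = 0.48). Aurka, the paralog of Aurkb, was at -0.41 (adjusted p = 0.462), and Plk1 was at -0.25 (adjusted p = 0.623).

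Spindle motors and cytokinesis genes had 4 of 17 lower and 1 higher. Kif20a, a motor of the central spindle, fell by 1.34 (adjusted p = 0.00155) and Ect2, the exchange factor that centralspindlin recruits, fell by 0.95 (adjusted p = 0.0129). Kif2c, a depolymerase at centromeres, rose by 1.27 (adjusted p = 1.2e-04). The kinetochore and anaphase list had 2 of 23 lower, Ube2c (-0.83, adjusted p = 0.0256) and Cdc20 (-0.81, adjusted p = 0.0412), both of the anaphase-promoting complex pathway, and Kntc1 higher by 1.27 (adjusted p = 0.00381).

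**Figure D3:**
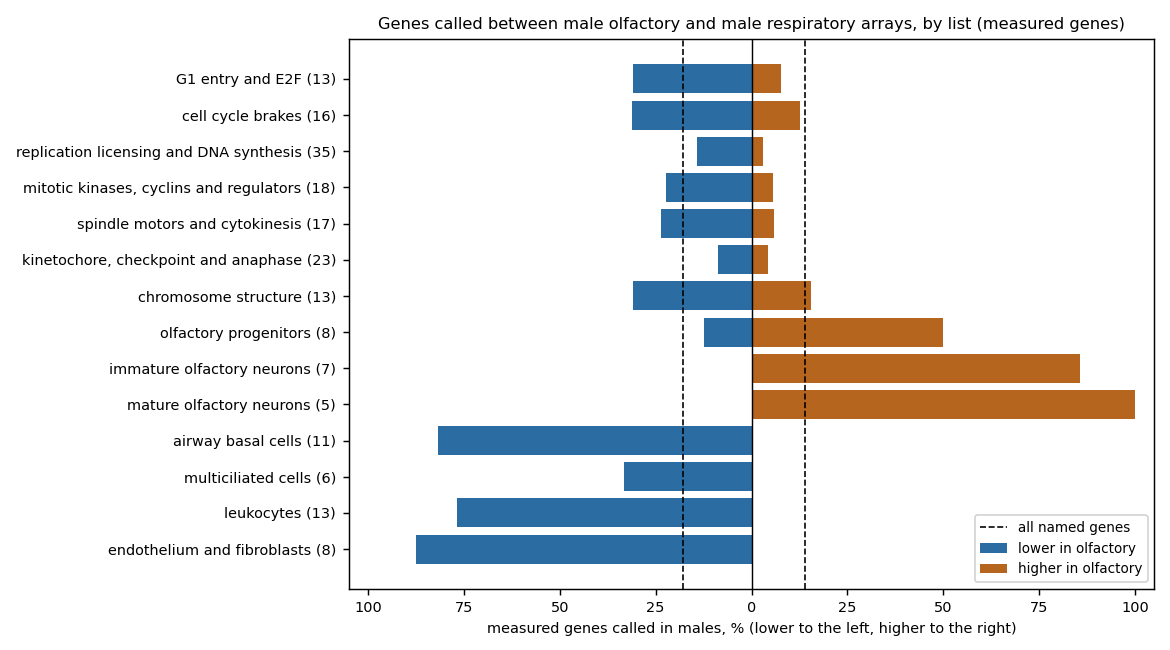
Share of measured genes called lower (left) or higher (right) in male olfactory against male respiratory epithelium at an adjusted p under 0.05, by list, with the number of measured genes in brackets and the shares of all named genes (17.8% lower, 14.0% higher) as dashed lines. The cell cycle lists have 8.7% to 31.2% of genes called lower, and the lists of basal cells, leukocytes, and endothelium and fibroblasts have 76.9% to 87.5%.

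Markers of other cell types, some of which can hold dividing cells, also differed between the tissues. Airway basal cell markers were lower in male olfactory epithelium for 9 of 11 genes, with Krt15 at -4.24 and Tp63 at -2.23. Their summed signal was 16424 to 32160 on male olfactory and 38983 to 104920 on male respiratory arrays, and 20352 to 24931 on female olfactory and 46595 to 56553 on female respiratory arrays. Olfactory progenitor markers had 4 of 8 higher and 1 lower in males, with Neurod1 at 2.22, Sox11 at 1.82 and Kit, above background on 4 of 6 male olfactory arrays, at -1.50. Their summed signal was 5115 to 7470 on male olfactory and 2821 to 6013 on male respiratory arrays, and 5462 to 6017 on female olfactory and 2650 to 4103 on female respiratory arrays.

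Leukocyte markers were lower in male olfactory epithelium for 10 of 13 genes, with Ptprc at -2.94. Their summed signal was 3117 to 6112 on male olfactory and 11157 to 18826 on male respiratory arrays, and 4253 to 4411 on female olfactory and 7879 to 33195 on female respiratory arrays. Endothelial and fibroblast markers were lower for 7 of 8, with Col3a1 at -1.60, and summed to 11398 to 21880 on male olfactory and 24291 to 45439 on male respiratory arrays, and to 12054 to 12489 on female olfactory and 22839 to 38406 on female respiratory arrays. Multiciliated cell markers were lower for 2 of 6, and summed to 18644 to 23221 on male olfactory and 14840 to 24202 on male respiratory arrays, and to 22423 to 24653 on female olfactory and 14196 to 20820 on female respiratory arrays.

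Immature olfactory neuron markers were higher for 6 of 7 and mature ones for 5 of 5 in males. Immature neuron markers summed to 18683 to 29743 on male olfactory and 2307 to 11243 on male respiratory arrays, and to 21610 to 31297 on female olfactory and 2024 to 9216 on female respiratory arrays. Mature neuron markers summed to 58250 to 69259 on male olfactory and 2236 to 11172 on male respiratory arrays, and to 71338 to 73732 on female olfactory and 3458 to 23174 on female respiratory arrays. Each gene of these 7 marker lists was above background on at least 1 array. The part of these cell types in the lower levels of Aurkb, Kif23, Bub1b and Mcm6 was not tested.

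Among the 12 respiratory arrays, each from a different rat, 6 mitotic genes had positive correlations with each other and Aurkb had negative ones with them, and few of these pairs passed the test. For the 15 pairs among Kif23, Bub1b, Mki67, Top2a, Ccnb1 and Cdk1, Pearson's r of the log2 levels was 0.39 to 0.85, with a median of 0.64, and 2 of the 15 passed an adjusted p under 0.05. For Aurkb with these 6 genes, r was negative in 6 of 6 pairs, at -0.53 to -0.14, and 0 of the 6 passed. Of all 45 pairs of the 10 genes, 30 had a positive r, 7 passed an adjusted p under 0.05 by r and 5 by Spearman's rho, and 3 passed by both (permutation tests, two-sided, 100000 resamples, adjusted over the 45 pairs).

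Cdk1 and Pcna gave r = 0.80 (permutation p = 1e-05, the smallest these resamples can give, adjusted p = 0.00045) and rho = 0.89 (p = 0.00032, adjusted p = 0.00825). Without the 2 arrays farthest from the Cdk1 median, r was 0.81. Within the sexes, r was 0.93 in females (exact permutation p = 0.0153) and 0.67 in males (exact permutation p = 0.149). Bub1b and Ccnb1 gave r = 0.85 (permutation p = 0.00037, adjusted p = 0.00832) and rho = 0.86 (adjusted p = 0.00825), with 0.88 without the 2 farthest arrays. Within the sexes, r was 0.97 in females (exact permutation p = 0.00556) and 0.71 in males (exact permutation p = 0.129). With Ccnb1 and Mcm6 (r = 0.78, adjusted permutation p = 0.0255, rho = 0.83, adjusted p = 0.0187), these were the pairs that passed by both measures.

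As a set, the mitotic genes without Aurkb co-varied within females and not within males, where Bub1b and Ccnb1 still gave r = 0.71. Over the 15 pairs of mitotic genes without Aurkb, the median r was 0.77 in the 6 females, with 0 pairs negative, and -0.18 in the 6 males, with 10 pairs negative. Kif23 and Mcm6 gave r = 0.97 in females and 0.11 in males, and Mki67 and Cdk1 gave 0.91 in females and -0.70 in males. Ccnb1 and Mcm6 gave 0.85 in females and -0.06 in males. The relation among the 6 mitotic genes as a set therefore did not hold within males. The SD of their log2 levels was 0.20 to 0.62 in males and 0.53 to 1.09 in females. The difference between the sexes was not tested. Without female array 8 and male array 7, the median r of the 15 pairs over the other 10 respiratory arrays was 0.76, with 0 negative. Female array 9 was kept in that setting, so this median does not show the relation without both female arrays 8 and 9.

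**Figure D4:**
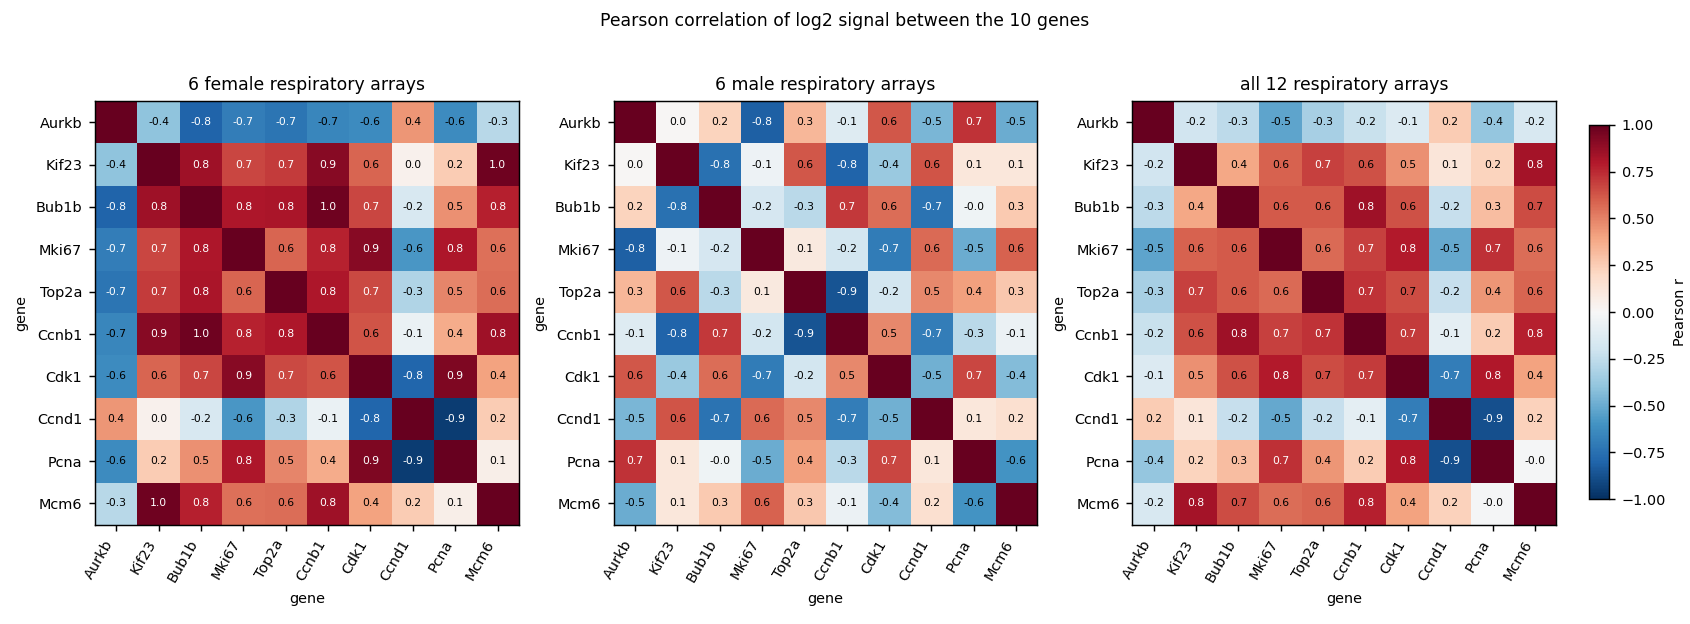
Pearson correlation of log2(signal + 16) between the 10 genes over the 6 female, the 6 male and all 12 respiratory arrays, from blue (-1) to red (1). The block of mitotic genes from Kif23 to Cdk1 is red in females (median r 0.77) and mixed in males (median -0.18), and the row of Aurkb is blue against that block in females.

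Many of the highest values lay on 2 female arrays, numbers 8 and 9. These were the female respiratory arrays of 14 weeks, and the other female respiratory arrays were of 11 or 13 weeks. Age and the other ways in which these arrays differ therefore cannot be told apart among females. Female respiratory array 8 had the highest Mki67 (1240.7), Cdk1 (1668.8) and Pcna (16930.2) and the lowest Ccnd1 at each of its 3 probe sets (302.7, 952.4 and 544.6) and the lowest Aurkb (508.0) of the 12 arrays. Female respiratory array 9 had the highest Kif23 at 1391063_at (731.8), Bub1b (196.0), Top2a (379.6 and 688.2), Ccnb1 (630.4 and 749.4) and Mcm6 (827.3). These 2 arrays ranked first and second of the 12 in summed leukocyte markers, at 33195 on array 8 and 22294 on array 9, but single markers differed in their order. Ptprc was 1069.3 on array 8 and 3039.9, the highest of the 12, on array 9. Cd3d was 745.4 on array 8, the highest of the 12, and 347.1 on array 9, and Cd79b was 13.4, not above background, on array 8 and 445.2 on array 9. The part of leukocyte RNA in the co-variation was not tested. Ccnd1 and Pcna gave r = -0.88 over 12 arrays (permutation p = 0.0126, adjusted p = 0.0532), and r was -0.11 without the 2 arrays farthest from the Ccnd1 median, so that relation rests on those arrays. Cdk1 and Ccnd1 passed by r (-0.69, adjusted permutation p = 0.0255) and not by rho (-0.62, adjusted p = 0.103). Their r was -0.74 without the 2 arrays farthest from the Cdk1 median, -0.79 in females, -0.48 in males, and -0.45 without female array 8 and male array 7.

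**Figure D5:**
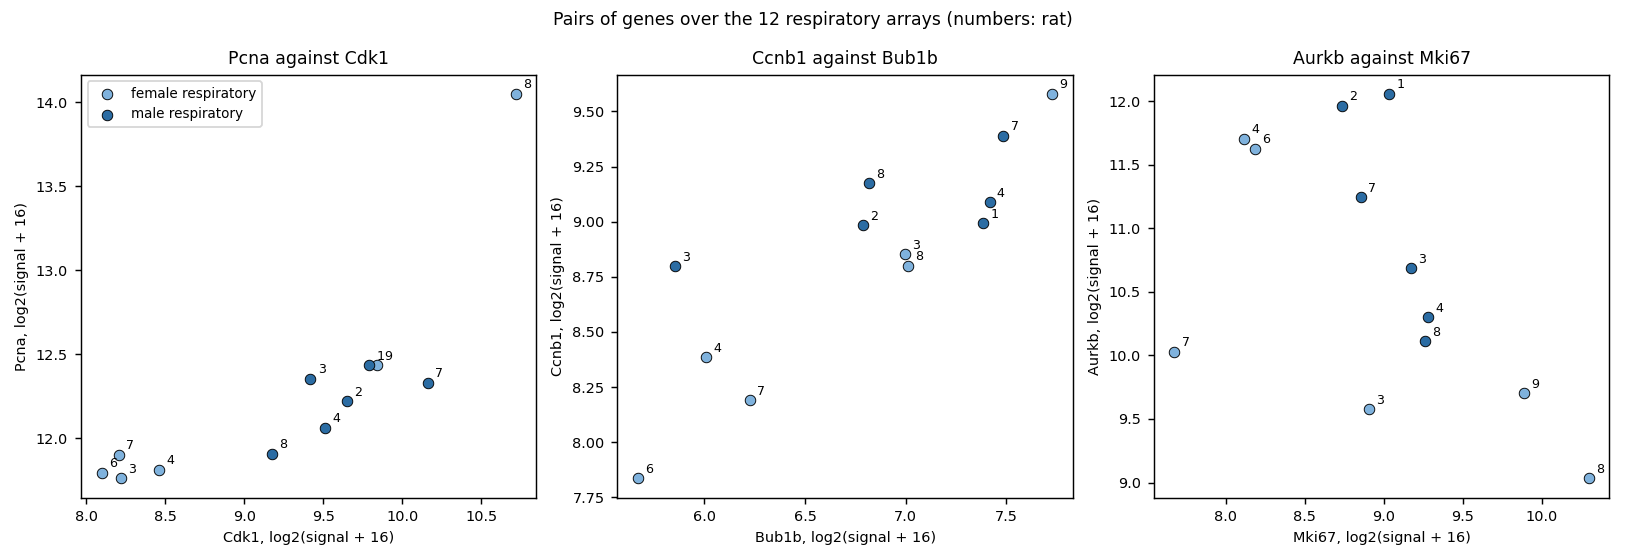
Log2(signal + 16) of Pcna against Cdk1, Ccnb1 against Bub1b and Aurkb against Mki67 on the 12 respiratory arrays, female arrays in light and male arrays in dark blue, numbered by rat. The first 2 pairs rise together (r = 0.80 and 0.85). Aurkb against Mki67 gave r = -0.53, which did not pass (adjusted permutation p = 0.159). Female array 8 was highest in Cdk1, Pcna and Mki67 and lowest in Aurkb.

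Aurkb and Mki67 gave r = -0.53 (permutation p = 0.0811, adjusted p = 0.159) and rho = -0.49, and r was -0.34 without female array 8 and male array 7. The sign was the same in females (-0.69, exact permutation p = 0.138) and in males (-0.82, exact permutation p = 0.0597). The 6 pairs of Aurkb with mitotic genes did not share this as a set. In females 6 of them were negative (median r -0.67), and in males 2 were (median 0.12), with Aurkb and Cdk1 at 0.62. Probe sets of a gene varied together over the 12 arrays with r = 0.76 for Top2a, 0.78 for Ccnb1 and 0.71 to 0.87 for the 3 pairs of Ccnd1, and with r = 0.50 for Kif23, whose second probe set was near background. Aurkb, Bub1b, Mki67, Cdk1, Pcna and Mcm6 have a single probe set each, so the array holds no second measurement of them.

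The genes most like the mean of the 7 mitotic members over the 12 respiratory arrays were Scarb2 (r = 0.94), Gpnmb (0.92), Ccl9 (0.91), Kif22 (0.90) and Ect2 (0.90), of 10504 genes above background on all 12 arrays. Kif22 and Ect2 belong to the spindle and cytokinesis list. Scarb2 is a lysosomal membrane protein, Gpnmb a glycoprotein of macrophages and other cells, and Ccl9 a chemokine. These values are descriptions over 12 arrays that share 2 high females.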

How the data were processed

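Total RNA was extracted with Trizol and purified with a Qiagen kit, and 20 Rat230_2 arrays were hybridised, per the labels' protocols. The deposited values are a linear signal intensity per probe set. GCOS 1.0 is named in the submitters' processing notes, and no source used here gives its algorithm or settings. Precision is limited by the number of arrays.

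Of 31099 probe sets, 57 controls were left out. The annotation gave 1 symbol for 20826 probe sets, several for 436 and none used here for 9780, and 20758 were matched by Entrez ID. log2(signal + 16) was fitted with limma 3.58.1 (R 4.3.3): 4 group means over all 20 arrays, an intensity trend, 2-sided tests, Benjamini-Hochberg adjustment over 31042 probe sets and calls under 0.05. A change understates that of dim genes, since 16 was added. The fit was tested on simulated data. The members, the lists and the 7 cell type marker lists were chosen with earlier results of these data known. All members were named, plus up to 3 called genes of largest male change and up to 2 uncalled examples per list.

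Arrays were paired by rat from the labels. Deviations from group means correlated by -0.184 to 0.246 within rats, above the median with other rats in 4 of 7, and the consensus correlation was 0.039. Correlations and promoter searches used Python 3.11.15 with scipy 1.17.1 and pandas 2.3.3. Promoters are from RefSeq, build GRCr8. Alternatives were the added constant, scaling, a filter on dim probe sets, the rat as a block, age, RNA integrity, arrays left out, the trend and fits of 2 groups.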

Additional observations from a re-analysis of the deposited data

Results flagged for a closer look

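Within groups of 6 arrays, 9 of 45 probe set and group combinations held a value far from the others by Dixon's test, which flags about 1 in 20 by chance. All values are log2(signal + 16). Female respiratory array 8 was high for Pcna (14.05, nearest 12.44) and low for Ccnd1 at 1371150_at (8.32, nearest 9.29) and 1383075_at (9.13, nearest 11.16). Female respiratory array 9 was high for Kif23 1391063_at (9.55, nearest 8.50) and Mcm6 (9.72, nearest 8.59). In male respiratory epithelium, array 4 was high for Mcm6 (9.23, nearest 8.87). In male olfactory epithelium, array 10 was low for Kif23 1391063_at (6.28, nearest 6.90), array 4 was high for Top2a 1372186_a_at (8.09, nearest 7.44) and array 7 was low for Ccnb1 1370345_at (6.87, nearest 7.78).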

How the results depend on the processing

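Of 510 values of single probe sets in the male tissue comparison under the alternatives, 485 kept their side of the threshold, 11 lost and 14 gained a call, and 0 called values changed sign. In females the counts were 460 of 480 kept, 18 lost, 2 gained and 0 changed sign. Differences that were not called have no settled direction. Aurkb stayed called in males in 33 of 34 alternatives, the exception being the integrity covariate.

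In males, 7 member probe sets were called with the rat as a fixed replicate block, where fewer of all probe sets were called than in the main fit. With RNA integrity as covariate 1 member probe set and 2347 of all probe sets were called. With the rat as a random replicate block 4 member probe sets and 8034 of all probe sets were called. Leaving out single arrays gave 3 to 6 member probe sets and 6807 to 8821 probe sets. Within the 3 males of 11 weeks with both tissues, Kif23 1395828_at (adjusted p = 0.308) and Bub1b (0.302) lost their call, and Mki67 (0.0144), Top2a 1388650_at (0.0246), Cdk1 (0.00126) and Ccnd1 1371150_at (0.00465) were called lower. Without female respiratory array 8, Mki67 (0.0366) and Ccnd1 1371150_at (0.0339) were called lower in males.

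In females, 1 member probe set was called after quantile normalization, after setting a common median and with only the 2 groups fitted, and 0 with RNA integrity as covariate, where 1133 probe sets were called. Without both arrays that stand apart, 8484 probe sets were called. Leaving out single arrays gave 0 to 4 member probe sets and 1977 to 7361 probe sets. Without female respiratory array 4 or 6, Aurkb had an adjusted p of 0.0525 or 0.0511.

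The test between the sexes' tissue differences called 0 probe sets (1516 at an unadjusted p under 0.05), and 4 with 1 added to the signal, 1 with 64 added, 1 after quantile normalization, 2 without the intensity trend and 0 to 2 with single arrays left out. Sex in olfactory epithelium called 13 probe sets, and 29 with 1 added, 22 after quantile normalization, 27 on the arrays with an integrity number, 26 without both arrays that stand apart, 23 without the trend, 5 with only the 2 groups and 8 to 26 with single arrays left out. In respiratory epithelium leaving out single arrays gave 7 to 9. In none of these was a member called.

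Pairs of members with r beyond 0.7 in size numbered 8 over 12 respiratory arrays, 18 in females, 7 in males and 19 without both arrays that stand apart. The cause of these changes was not tested. Signals near background in 1 tissue limit Kif23 1395828_at, Bub1b, Mycn, Cdkn2a, Cdkn2b and Pkmyt1.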

Other observations

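The array-to-array pattern of Aurkb in respiratory epithelium was most like that of Fasn (r = 0.89), Ddit4 (0.88), Ccdc61 (0.87), Cpz (0.86) and Itpka (0.84) over the 12 respiratory arrays, of 10504 genes above background on all 12. Fasn is the fatty acid synthase and Ddit4 an inhibitor of mTOR signalling. None of these 5 genes is in the cell cycle lists. Likeness to Aurkb alone was looked up after its values were seen.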
